A study of Arabidopsis thaliana with 6 samples.

Results

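The type-A response regulators of Arabidopsis thaliana are a family of small proteins that act in the cytokinin pathway, and 10 of their genes were examined here by locus among the 32833 genes of a root RNA sequencing count table: ARR3, ARR4, ARR5, ARR6, ARR7, ARR8, ARR9, ARR15, ARR16 and ARR17. All 10 loci were present in the table. The samples were roots of wild-type Col-0 seedlings at 3 days after germination, kept for 1 h in liquid MS medium that held IAA, a natural auxin, at 1 µM, or, as mock, in such medium with nothing added. There were 3 IAA and 3 mock libraries, each from a pool of about 100 roots, so a level is an average over all root cell types. Per the series design the 3 samples of a group are biological replicates, but nothing says that they were grown and treated on separate occasions, and the p-values measure only the spread between these samples.

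Cytokinin is sensed by histidine kinase receptors, which pass a phosphoryl group through phosphotransfer proteins to the response regulators of the nucleus. Type-B response regulators are transcription factors that switch on cytokinin target genes, among them the type-A genes. Type-A regulators carry the same receiver domain without a DNA-binding domain and dampen the signal, which makes them a negative feedback arm and a common readout of cytokinin response. Auxin and cytokinin act against each other in the root meristem, and in the Arabidopsis embryonic root ARR7 and ARR15 are known as auxin-induced members.

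Library totals ran from 20808439 to 20984444 counts. The treatment showed in the auxin-conjugating enzyme gene GH3.3, which was at 970, 1058 and 927 CPM (counts scaled to a common library size) in IAA roots and at 5.02, 4.34 and 6.40 CPM in mock roots. All 10 genes of a list of root markers were detected, with a summed level of 554 to 605 CPM in IAA roots and 463 to 474 CPM in mock roots, and 2 of the 10, EXPA7 of root hairs and WOX5 of the quiescent centre, were called higher. All 19 genes of a list of photosynthesis genes, which mark green shoot tissue, were detected as well, with a sum of 448 to 1555 CPM in IAA roots and 508 to 4427 CPM in mock roots, and 0 of the 19 were called although all 19 had the lower mean in IAA roots. IAA replicate 1 (IAA 1) stood apart from the other IAA libraries: on the second principal component, which held 27.9% of the variance of tested genes, it lay at 39.0, IAA 2 at -25.8 and IAA 3 at -23.0, while mock 1, 2 and 3 lay at 7.40, 35.1 and -32.7. The changes of the type-A genes, and those of other genes where its absence alters a call, are given with and without it.

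With IAA, 0 of the 8 type-A genes that had enough counts to be tested were called higher and 0 lower, whereas 3.24% of 19778 genes tested were called higher and 0.991% lower (quasi-likelihood test of edgeR, p adjusted over all genes tested by Benjamini-Hochberg and under 0.05), which makes 4.23% in either direction. At an unadjusted p under 0.05, 1 member, ARR7, was higher and 0 were lower, and 17.4% of all genes passed that mark. DESeq2, which fitted all 10 members, called 1 higher, again ARR7, and 0 lower, against 4.89% of genes higher and 2.49% lower. Limma-voom called 0 members, against 601 genes higher and 174 lower of 19778 tested. The median log2 change of the 8 tested members was -0.01, the same as the -0.01 of all tested genes, with 4 members above 0 and 4 below. In 1 of the 8, ARR7, the IAA and mock values did not overlap, and among all tested genes 12.3% did not overlap and were higher, 9.83% did not overlap and were lower, 22.1% in all. ARR15 and ARR17 were below the filter on low counts.

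**Figure D1:**
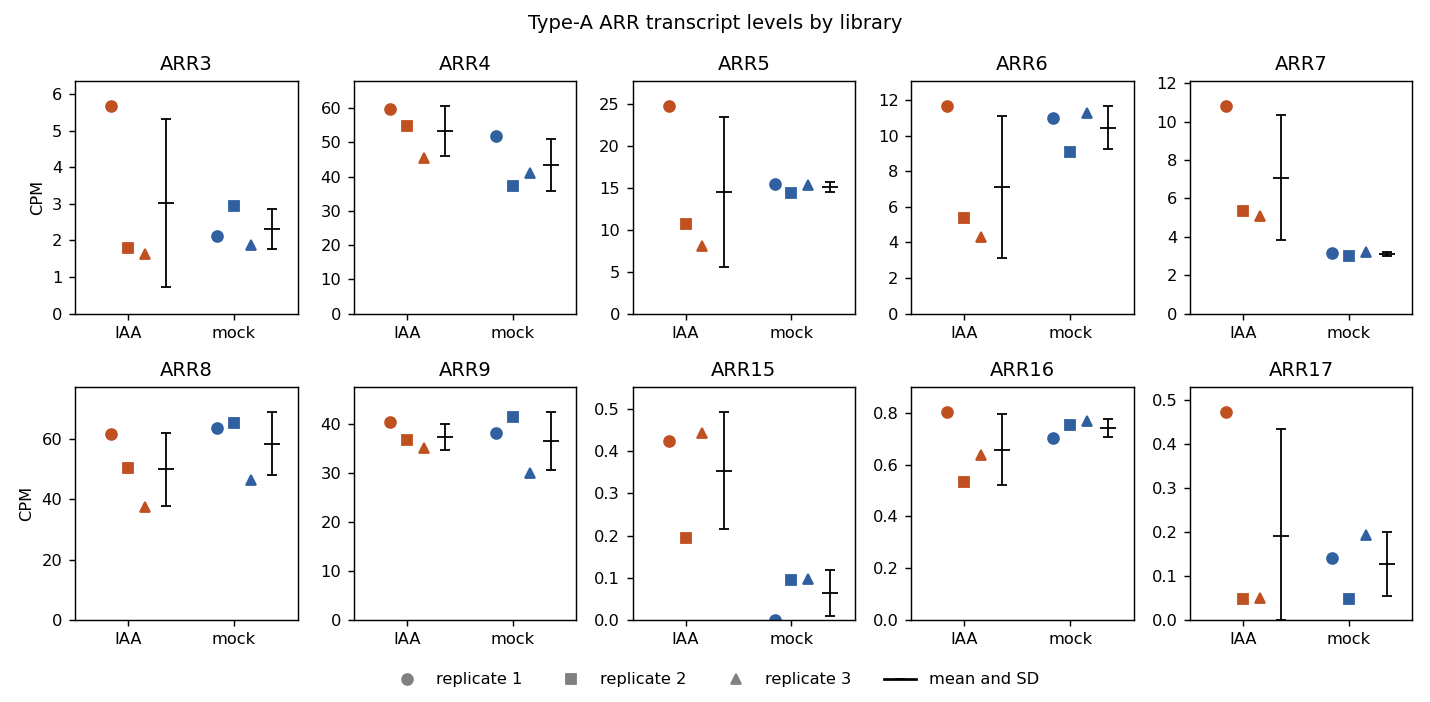
Level of each of the 10 type-A genes in CPM (vertical axes, each from 0) in the 3 IAA and the 3 mock libraries, with symbols for the replicates and bars for mean and SD. ARR7 and ARR15 were higher in every IAA library than in any mock library, and in ARR3, ARR5, ARR6, ARR7 and ARR17 the IAA 1 library lay far above IAA 2 and IAA 3.

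ARR7 (AT1G19050, chromosome 1 from 6577833 to 6579314 on the minus strand in TAIR10.1, 5 exons) had the smallest p in the family. Its level was 10.8, 5.36 and 5.07 CPM in IAA 1, 2 and 3, against 3.14, 3.02 and 3.22 CPM in mock 1, 2 and 3. Every IAA library lay above every mock library, and IAA 1 was 1.98-fold above the geometric mean of the other IAA libraries, with 0.5 CPM added to each level. The mean was 7.08 ± 3.24 CPM in IAA roots and 3.13 ± 0.102 CPM in mock roots (SD, n = 3 each), a log2 change of 1.18 (SE 0.31, 95% interval 0.46 to 1.90) or 2.26-fold, with edgeR's adjusted p = 0.0864. The authors' deposited table has the same gene at a log2 change of 1.18 (SE 0.34) with their DESeq2 adjusted p = 0.0124, in a table where 4.89% of genes were called higher and 2.49% lower. Across the edgeR and limma-voom alternatives the adjusted p of ARR7 ran from 0.0622 to 0.29. Without IAA 1 the change was smaller by over 1.5 times on the log2 scale, 0.74 (SE 0.19, edgeR adjusted p = 0.0622), and DESeq2 no longer called it (adjusted p = 0.0718).

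ARR15 (AT1G74890, chromosome 1 from 28131447 to 28133025 on the minus strand in TAIR10.1) is the nearest relative of ARR7 and was close to absent from these roots. It had 9, 4 and 9 counts in IAA 1, 2 and 3, against 0, 2 and 2 counts in mock 1, 2 and 3. The counts of the groups did not overlap. The pooled counts, 22 in IAA roots and 4 in mock roots, gave a ratio of 5.60 with an exact 95% interval of 1.90 to 22.3, which covers counting error only. Leaving out mock 1 gave 3.71, and leaving out any other single library gave 4.91 to 7.52. The authors' deposited table has ARR15 at a log2 change of 2.48 (SE 1.23) with an adjusted p of 0.284. For the other 8 members it has adjusted p-values from 0.47 to 0.988.

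The 300 bases before the annotated start are shown for ARR7, the member with the smallest p, and for ARR15, its nearest relative. Those of ARR5 and ARR6, whose means were not higher in IAA roots, are shown beside them. The second pair was chosen after the values were seen. The bases are given from the RefSeq annotation of TAIR10.1, 5′ to 3′ along each gene, in lower case. Capitals mark matches on either strand to TGTCTC or TGTCGG, core letters bound by auxin response factors, and to AGATT or AGATC, core letters bound by type-B response regulators. The letters AGATCT read the same on both strands and count as 2 matches. The ARR7 window is chr1:6579315-6579614, the ARR15 window chr1:28133026-28133325, the ARR5 window chr3:17760951-17761250 and the ARR6 window chr5:25254319-25254618, all on the minus strand.
ARR7: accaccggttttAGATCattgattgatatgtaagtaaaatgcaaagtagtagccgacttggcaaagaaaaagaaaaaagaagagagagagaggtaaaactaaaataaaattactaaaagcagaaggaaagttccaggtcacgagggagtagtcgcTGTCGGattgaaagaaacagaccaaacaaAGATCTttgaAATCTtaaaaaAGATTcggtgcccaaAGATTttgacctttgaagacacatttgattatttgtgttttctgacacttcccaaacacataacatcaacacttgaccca
ARR15: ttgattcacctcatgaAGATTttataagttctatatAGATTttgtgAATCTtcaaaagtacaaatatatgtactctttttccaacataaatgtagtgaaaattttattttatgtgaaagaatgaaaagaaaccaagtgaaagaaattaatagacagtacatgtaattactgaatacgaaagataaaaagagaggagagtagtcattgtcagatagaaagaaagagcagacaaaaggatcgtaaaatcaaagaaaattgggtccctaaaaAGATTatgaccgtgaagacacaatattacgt
ARR5: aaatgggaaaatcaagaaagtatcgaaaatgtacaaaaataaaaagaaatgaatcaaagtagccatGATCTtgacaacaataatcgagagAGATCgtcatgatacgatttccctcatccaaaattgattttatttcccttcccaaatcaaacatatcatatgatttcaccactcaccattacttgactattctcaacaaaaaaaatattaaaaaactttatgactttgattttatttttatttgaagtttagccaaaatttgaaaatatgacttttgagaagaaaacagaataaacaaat
ARR6: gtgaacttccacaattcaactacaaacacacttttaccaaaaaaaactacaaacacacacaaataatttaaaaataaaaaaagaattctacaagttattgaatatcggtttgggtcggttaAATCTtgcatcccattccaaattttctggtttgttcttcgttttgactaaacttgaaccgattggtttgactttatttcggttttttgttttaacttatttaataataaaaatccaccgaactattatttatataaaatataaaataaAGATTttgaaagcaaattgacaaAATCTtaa

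ARR7 held 1 match to TGTCGG, which starts 145 bases before the gene, 3 to AGATT and 3 to AGATC. ARR15 held 4 matches to AGATT, ARR6 held 3 to AGATT, and ARR5 held 2 to AGATC. None of the ARR15, ARR5 and ARR6 windows held TGTCTC or TGTCGG, and 1 of the 10 members held each of them, ARR3 for TGTCTC and ARR7 for TGTCGG. Of 27443 windows of the same length before nuclear protein-coding genes, 13.0% held TGTCTC, 4.91% TGTCGG, 70.7% AGATT and 31.7% AGATC. Of the 10 member windows 7 held AGATT and 5 held AGATC. A match is a string of letters and not a measured binding site.

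ARR5 (AT3G48100, chromosome 3 from 17758427 to 17760950 in TAIR10.1) and ARR6 (AT5G62920, chromosome 5 from 25252007 to 25254318), both on the minus strand, are a closely related pair widely used as reporters of cytokinin response. ARR5 was at 24.8, 10.7 and 8.12 CPM in IAA 1, 2 and 3, against 15.5, 14.4 and 15.4 CPM in mock 1, 2 and 3. IAA 1 lay above all mock libraries, and IAA 2 and IAA 3 lay below all of them. The mean was 14.5 ± 8.98 CPM in IAA roots and 15.1 ± 0.58 CPM in mock roots (SD, n = 3 each), a log2 change of -0.05 with a 95% interval of -1.0 to 0.89. ARR6 was at 11.7, 5.36 and 4.33 CPM in IAA 1, 2 and 3, against 11, 9.06 and 11.3 CPM in mock 1, 2 and 3. Again IAA 1 was high and IAA 2 and IAA 3 were below every mock library. The log2 change of ARR6 was -0.55 with an interval of -1.40 to 0.30 (edgeR adjusted p = 0.506).

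Without IAA 1, ARR5 and ARR6 were both called lower, 2 of 8 tested members, and 0 members were called higher. In that fit 2.17% of 19961 genes were called lower and 4.20% called higher. IAA 1 held the highest IAA value of all 8 tested members, so leaving it out moves the change of each downward by construction. ARR6 then averaged 4.84 CPM in IAA 2 and 3 and 10.4 CPM in mock roots, a log2 change of -1.11 (SE 0.18, edgeR adjusted p = 0.012). ARR5 averaged 9.42 CPM in IAA 2 and 3 and 15.1 CPM in mock roots, a log2 change of -0.68 (SE 0.16, edgeR adjusted p = 0.047). DESeq2 on the same 5 libraries, an alternative chosen after seeing the data, gave -1.10 for ARR6 (adjusted p = 0.000151) and -0.67 for ARR5 (adjusted p = 0.0138). With all 6 libraries neither gene was called by edgeR, DESeq2 or limma-voom.

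**Figure D2:**
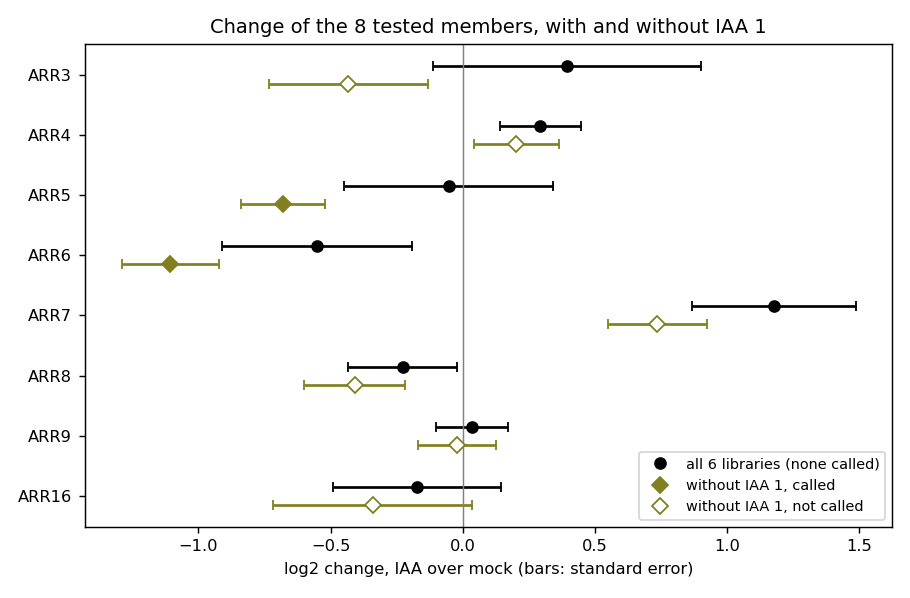
Log2 change, IAA over mock (horizontal axis), of the 8 tested type-A genes with its standard error, from all 6 libraries (circles) and from 5 libraries without IAA 1 (diamonds, filled where the adjusted p was under 0.05). ARR7 stayed above 0 in both, ARR3 lay at 0.39 with IAA 1 and at -0.43 without it, and ARR5 and ARR6 moved to -0.68 and -1.11 without it.

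The spread within the IAA group was uneven across the family. All 8 tested members had their highest IAA value in IAA 1, and 6 of the 8 had their highest value of all 6 libraries there. The share of all tested genes with their highest value in IAA 1 was not computed, so these counts have no background. In log2(CPM + 0.5), IAA 1 exceeded the mean of IAA 2 and 3 by 1.49 for ARR3, 1.36 for ARR5, 1.19 for ARR6 and 0.99 for ARR7. The same difference was 0.50 for ARR8, 0.26 for ARR4, 0.27 for ARR16 and 0.16 for ARR9. Thus 3 of the 8 members were at least 2-fold up in IAA 1 within their group, against 2.52% of the 19778 tested genes, and no member was 2-fold up or down in any other library. This count was taken after the pattern had been seen. The median over the 8 members was 0.74 in IAA 1, against 0.0067 over all tested genes. In the mock libraries the member median was from -0.03 to 0.08.

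**Figure D3:**
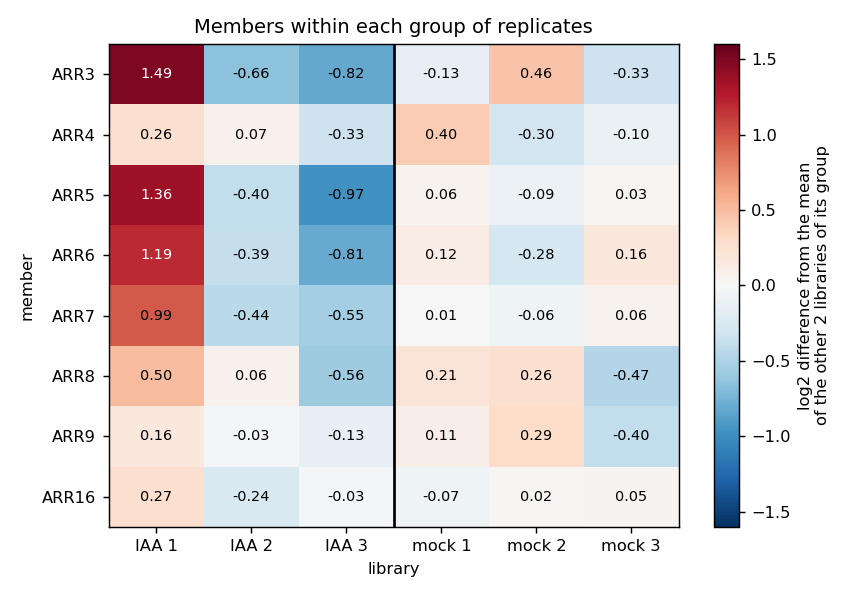
Difference on the log2(CPM + 0.5) scale between each library (columns) and the mean of the other 2 libraries of its group, for the 8 tested type-A genes (rows), in colour with the value printed. The IAA 1 column is above 0 in every row, by up to 1.49 in ARR3, and mock values lie between -0.47 and 0.46.

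Single root markers differed in IAA 1 as well, in either direction. The meristem genes PLT1 and PLT2 were at 24.3 and 19.3 CPM in IAA 1, PLT1 at 12.8 and 18.3 CPM and PLT2 at 10.2 and 10.4 CPM in IAA 2 and 3. CASP1, a gene of the differentiated endodermis, was at 119 CPM in IAA 1 and at 177 and 191 CPM in IAA 2 and 3. GL2 was at 13.6, 20.1 and 23.6 CPM in IAA 1, 2 and 3. By contrast COBL9 was highest in IAA 1, at 48.2, 41.6 and 44.0 CPM. EXPA7 of root hairs was at 160.7, 145.7 and 161.1 CPM in IAA 1, 2 and 3. Of the 10 root markers 7 were at their highest IAA value in IAA 1 and 2 at their lowest, and the root marker sum was 567, 554 and 605 CPM in IAA 1, 2 and 3. Of the 19 photosynthesis genes 18 were at their lowest IAA value in IAA 1, while in mock roots all 19 were lowest in mock 2. The part of tissue make-up in the IAA 1 values of the type-A genes was not tested. In pooled roots fewer cells of a type and less RNA per cell cannot be told apart.

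A ratio of 2 genes within a library needs no scaling between libraries. The counts of ARR7 were 0.436, 0.50 and 0.624 of those of ARR5 in IAA 1, 2 and 3, against 0.202, 0.209 and 0.21 in mock 1, 2 and 3. Relative to ARR6, ARR7 had 0.927, 1.00 and 1.17 counts per count in IAA 1, 2 and 3, against 0.285, 0.333 and 0.286 in mock roots. Both ratios were higher in every IAA library, IAA 1 included, than in any mock library; the 2 ratios were chosen after the values were seen and were not tested.

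For the 5 pairs of closest relatives the log2 ratio of counts was compared between groups with a two-sided exact permutation test, whose smallest possible p with 3 against 3 libraries is 0.1. The log2 ratio of ARR5 to ARR6 was 1.09, 1.00 and 0.90 in IAA 1, 2 and 3, against 0.49, 0.67 and 0.45 in mock 1, 2 and 3. These values did not overlap, with a difference of 0.46 between the means (exact p = 0.1, adjusted p = 0.167 over 5 pairs). The ratio of ARR8 to ARR9 was 0.62, 0.45 and 0.10 in IAA roots, against 0.74, 0.65 and 0.63 in mock roots. Its mean was lower in IAA roots by a difference of -0.29, without overlap (exact p = 0.1, adjusted p = 0.167), and by -0.14 without IAA 3. Without IAA 1 the difference was 0.41 for ARR5 to ARR6 and -0.40 for ARR8 to ARR9 (exact p = 0.1 each, the smallest possible with 2 against 3 libraries). ARR7 to ARR15 also reached the smallest p, with a difference of -1.28, but rests on the few counts of ARR15 and came to -0.46 with a pseudocount of 2 in place of 0.5, to -0.50 without mock 1 and to -1.47 without IAA 1 (exact p = 0.6, 0.5 and 0.4). The ratios of ARR3 to ARR4 and of ARR16 to ARR17 overlapped between the groups (exact p = 0.7 and 0.8, adjusted p = 0.8 each), with differences of -0.13 and -0.21, and of -0.61 and 0.56 without IAA 1.

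ARR4 (AT1G10470), ARR8 (AT2G41310) and ARR9 (AT3G57040) were the most abundant members. ARR4, which is known to bind the photoreceptor phytochrome B, was at 59.8, 54.7 and 45.4 CPM in IAA 1, 2 and 3, against 52.0, 37.4 and 41.0 CPM in mock 1, 2 and 3. The groups overlapped, and its log2 change of 0.29 had a 95% interval of -0.06 to 0.65 (edgeR adjusted p = 0.384). ARR8 was at 61.9, 50.4 and 37.6 CPM in IAA roots, against 63.8, 65.3 and 46.4 CPM in mock roots, and its interval was -0.71 to 0.26. ARR9 was at 40.4, 36.8 and 35.2 CPM in IAA roots, against 38.1, 41.5 and 30.0 CPM in mock roots, with the narrowest interval of the family, -0.28 to 0.35. For each of the 3 genes a change of 2-fold in either direction lies outside the interval. Without IAA 1 the log2 changes were 0.20 for ARR4, -0.41 for ARR8 and -0.022 for ARR9, and edgeR called none of the 3 (adjusted p = 0.533, 0.287 and 0.955).

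ARR3 (AT1G59940), the closest relative of ARR4, was at 5.67, 1.79 and 1.62 CPM in IAA 1, 2 and 3, against 2.11, 2.93 and 1.88 CPM in mock 1, 2 and 3. IAA 1 was the highest library and IAA 2 and 3 the lowest of all 6. Its log2 change of 0.39 had an interval of -0.80 to 1.59 and turned to -0.43 without IAA 1 (edgeR adjusted p = 0.473). ARR16 (AT2G40670) was at 0.803, 0.531 and 0.639 CPM in IAA roots, against 0.704, 0.755 and 0.77 CPM in mock roots, and its log2 change was -0.17 with an interval of -0.91 to 0.57, and -0.34 without IAA 1. ARR17 (AT3G56380), its nearest relative, had 10, 1 and 1 counts in IAA roots, against 3, 1 and 4 counts in mock roots. The pooled ratio of 1.53 had an exact 95% interval of 0.574 to 4.30, and without IAA 1 the ratio was 0.386 with an interval of 0.0399 to 1.93.

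Levels of different genes were compared as CPM per kb of exon. In IAA roots ARR4 led with 25.4 ± 3.50 CPM per kb, ahead of ARR8 with 21.1 ± 5.12 and ARR9 with 19.8 ± 1.40 (SD, n = 3 each), and these 3 overlapped. ARR5 followed at 10 ± 6.19, ARR7 at 7.51 ± 3.44, ARR6 at 4.88 ± 2.73 and ARR3 at 2.31 ± 1.75 CPM per kb, each overlapping the next. ARR15, ARR16 and ARR17 were between 0.307 and 0.328 CPM per kb on average, apart from ARR3, and overlapped each other. In mock roots ARR8 led with 24.7 ± 4.44 CPM per kb, followed by ARR4 with 20.7 ± 3.62 and ARR9 with 19.3 ± 3.12, which again overlapped. Below them came ARR5 at 10.4 ± 0.40, ARR6 at 7.16 ± 0.826, ARR7 at 3.32 ± 0.108, ARR3 at 1.76 ± 0.42 and ARR16 at 0.358 ± 0.0168 CPM per kb, each apart from its neighbours in all 3 libraries. ARR17 at 0.205 ± 0.119 and ARR15 at 0.0589 ± 0.051 CPM per kb were lowest and overlapped each other. ARR7 thus stood before ARR6 in IAA roots and after it in mock roots, but in IAA roots their values overlapped. Per kb of coding sequence ARR6 came before ARR7 in IAA roots too, at 12.7 and 11.4 CPM per kb, and ARR8 before ARR4, at 73.7 and 68.3 CPM per kb.

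The coding sequences of the 5 pairs were 79.0% to 84.2% identical, and no 2 members shared a stretch of 50 bases in their transcripts, which bears on whether reads of 100 bases could be placed on the wrong member. For ARR8, 5 such stretches, which may overlap each other, also occurred at or within 2 kb of its closest match, at AT2G07440. That gene had 1 count in IAA 2 and 0 in the other libraries. The 3′ end of ARR6 overlaps the convergent gene AT5G62910 over 348 bases, and the strand setting of the counting is not given in the sources used here. AT5G62910 was at 15.3, 17.0 and 21.4 CPM in IAA 1, 2 and 3, against 14.3, 15.5 and 17.8 CPM in mock roots. The part of reads from the shared bases in the ARR6 counts was not tested. ARR8 and ARR9 each overlap an annotated antisense RNA that had 0 counts in every library.

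Among tested genes with a mean of at least 1 CPM, the 3 whose log2(CPM + 0.5) followed that of ARR7 most closely over the 6 libraries were GA20OX5 (Pearson's r = 0.996), LRP1 (r = 0.996) and AT2G25270 (r = 0.994), out of 18736 genes compared. GA20OX5, which encodes a gibberellin oxidase, was at 10.3, 2.13 and 1.92 CPM in IAA 1, 2 and 3, against 0.516, 0.283 and 0.625 CPM in mock roots. LRP1, a gene of lateral root primordia, was at 35.8, 14.7 and 13.2 CPM in IAA roots, against 8.30, 8.35 and 8.08 CPM in mock roots. For ARR8, the member with the highest mean CPM over the 6 libraries together (ARR4 was higher in IAA roots), the nearest were FC2, ALG3 and RIC2 (r = 0.996, 0.995 and 0.995). These correlations describe 6 libraries that share 2 groups.

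The upstream and parallel parts of cytokinin signalling held 28 listed genes, of which 21 were tested, with 2 called higher and 1 lower (edgeR, 3.24% and 0.991% of all tested genes). CRF3 (AT5G53290) and CRF2 (AT4G23750), which encode cytokinin response factors, transcription factors of the AP2/ERF class, rose. CRF3 was at 45.1, 61.5 and 66.9 CPM in IAA 1, 2 and 3, against 18.1, 21.7 and 23.2 CPM in mock roots, a log2 change of 1.46 (SE 0.17, edgeR adjusted p = 0.00363). CRF2 was at 34.9, 35.9 and 39.4 CPM in IAA roots, against 17.7, 17.8 and 23.5 CPM in mock roots, a log2 change of 0.90 (SE 0.14, edgeR adjusted p = 0.0115). IAA and mock values did not overlap for either gene, and IAA 1 was the lowest IAA library for both. The CRF3 call held without each library in turn, and the CRF2 call was lost without IAA 2 (edgeR adjusted p = 0.0503) or mock 1 (0.0708).

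Of 3 receptor genes, AHK4 (AT2G01830), which is expressed in the root vasculature, fell to 45.0, 47.3 and 43.2 CPM in IAA 1, 2 and 3, against 60.6, 62.9 and 58.8 CPM in mock roots. Its log2 change was -0.43 (SE 0.08, edgeR adjusted p = 0.0326), and the call was lost without any 1 library, with edgeR adjusted p = 0.0518, 0.104 and 0.117 without IAA 1, 2 and 3 and 0.147, 0.114 and 0.0502 without mock 1, 2 and 3. AHK2 had a log2 change of -0.51 and AHK3 of 0.06, and edgeR called neither. DESeq2 called AHK2 lower (adjusted p = 0.0441, and 0.0151 without IAA 1). With all libraries DESeq2 called 2.49% of all genes lower. Of the 6 phosphotransfer genes edgeR, DESeq2 and limma-voom called 0 with all libraries, where edgeR called 4.23% of all tested genes. By edgeR before adjustment 1 was higher and 0 lower, and 17.4% of all tested genes passed an unadjusted p under 0.05. AHP1, the most abundant per exon length, was at 74.1 ± 13.6 CPM in IAA roots and 69.9 ± 4.36 CPM in mock roots (SD, n = 3 each). AHP6, which inhibits cytokinin signalling, had a log2 change of 0.78 (edgeR adjusted p = 0.192) and was called higher only without IAA 1 (1.01, adjusted p = 0.0245).

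Of 11 type-B genes, the activators of the type-A genes, 6 were tested and 0 called by edgeR. Before adjustment edgeR had 1 higher and 0 lower, where 17.4% of all tested genes passed. Limma-voom called 0 and DESeq2 called 1, ARR10, higher, against 4.89% of all genes called higher by DESeq2. ARR1, the most abundant, was at 109 ± 9.09 CPM in IAA roots and 124 ± 5.28 CPM in mock roots (SD, n = 3 each). ARR10, named after its values were seen, was at 97.2, 54.7 and 58.6 CPM in IAA 1, 2 and 3, against 43.5, 44.0 and 42.0 CPM in mock roots, so that IAA 1 again stood highest, and its log2 change was 0.70 (edgeR adjusted p = 0.144, DESeq2 adjusted p = 0.0254) and 0.39 without IAA 1 (edgeR adjusted p = 0.0597). ARR11, also named after its values were seen, was at 15.7, 7.39 and 10.4 CPM in IAA roots, against 17.6, 15.2 and 15.4 CPM in mock roots, and without IAA 1 it was called lower (log2 change -0.85, edgeR adjusted p = 0.0316). The type-C genes ARR22 and ARR24 had 0 counts in every library, which allows up to 0.141 to 0.148 CPM per library at 3 counts.

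**Figure D4:**
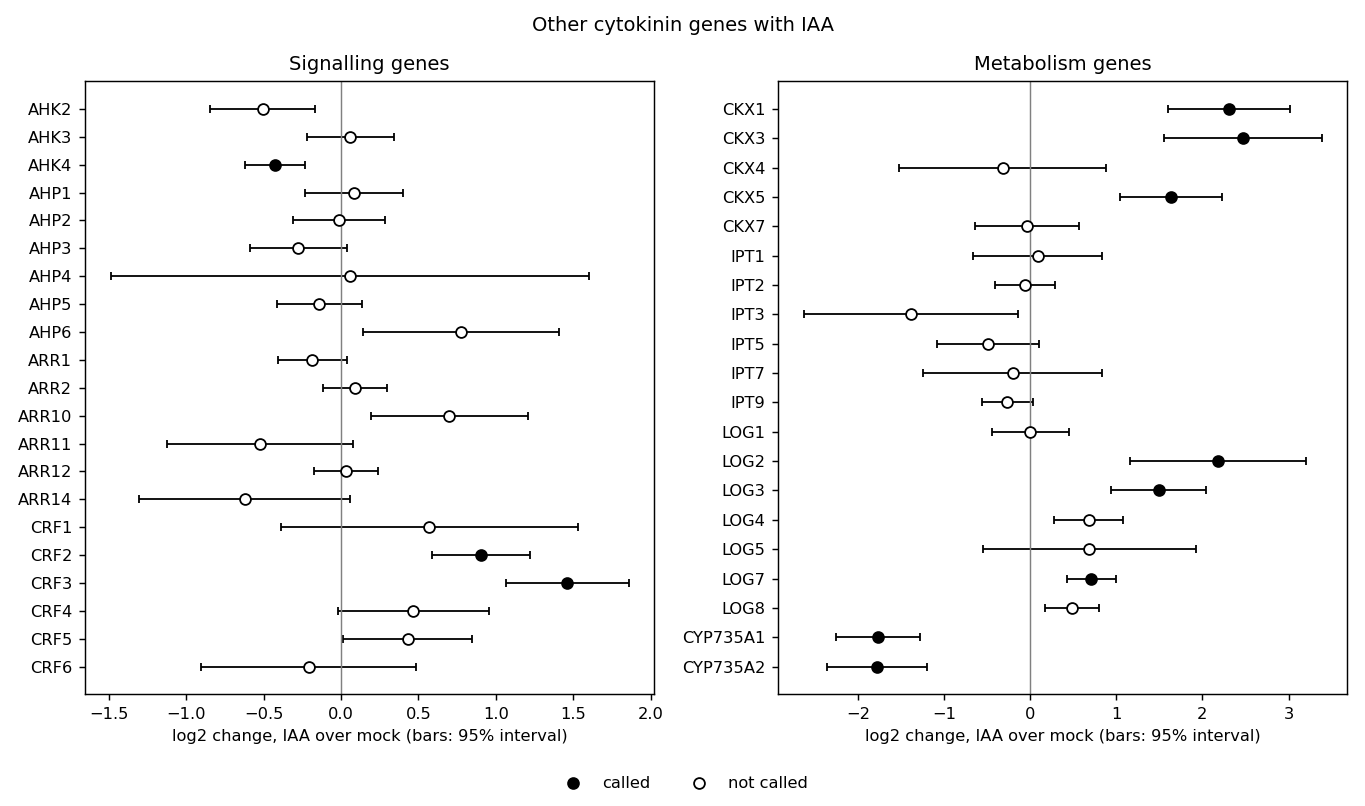
Log2 change, IAA over mock (horizontal axes), with its 95% interval for the 21 tested signalling genes other than type-A (left) and the 20 tested metabolism genes (right), filled where the edgeR adjusted p was under 0.05. CRF2 and CRF3 were called higher and AHK4 lower on the left, and on the right 6 genes were called higher and CYP735A1 and CYP735A2 lower.

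Among genes of cytokinin metabolism, 26 were listed and 20 were tested, with 6 called higher and 2 lower by edgeR, against 3.24% and 0.991% of all tested genes. Without IAA 1 the same 6 were called higher, and 3 were called lower, IPT3 besides the same 2. In that fit 4.2% of all tested genes were called higher and 2.17% lower. CYP735A1 (AT5G38450) and CYP735A2 (AT1G67110), which encode the hydroxylases that make trans-zeatin type cytokinins, fell to 1.62 ± 0.0998 and 4.25 ± 1.17 CPM in IAA roots, against 5.52 ± 0.994 and 14.5 ± 2.98 CPM in mock roots (SD, n = 3 each), log2 changes of -1.76 and -1.77 (edgeR adjusted p = 0.00403 and 0.00836). LOG3, LOG2 and LOG7, which encode enzymes that release active cytokinin bases, rose with log2 changes of 1.49, 2.18 and 0.71 (edgeR adjusted p = 0.014, 0.0356 and 0.0201). The calls for LOG2 were lost without any 1 library except IAA 1, those for LOG3 without IAA 2, IAA 3 or mock 2, and those for LOG7 without IAA 2, IAA 3, mock 1 or mock 2, with edgeR adjusted p from 0.0506 to 0.125. The oxidase genes CKX1, CKX3 and CKX5, whose products degrade cytokinin, rose with log2 changes of 2.31, 2.47 and 1.64 (edgeR adjusted p = 0.00659, 0.0145 and 0.0129), and the call of CKX3 was lost without mock 1 (adjusted p = 0.0893) and that of CKX5 without mock 1 (0.0524) or IAA 2 (0.0616). Of 9 isopentenyltransferase genes 6 were tested and edgeR called 0. Before adjustment 0 were higher and 1 lower, where 17.4% of all tested genes passed. Limma-voom called 0 and DESeq2 called 1 lower, IPT3, against 2.49% of all genes called lower by DESeq2. IPT3 was at 11.5, 3.24 and 3.39 CPM in IAA 1, 2 and 3, against 17.2, 18.2 and 12.2 CPM in mock roots. Its log2 change was -1.39 (edgeR adjusted p = 0.236, DESeq2 adjusted p = 0.0236). Without IAA 1, IPT3 was called lower by edgeR as well, at 3.31 CPM on average in IAA 2 and 3 and 15.8 CPM in mock roots (log2 change -2.26, edgeR adjusted p = 0.000966). IPT5, the most abundant, was at 23.5 ± 1.52 CPM in IAA roots and 32.9 ± 11.2 CPM in mock roots (SD, n = 3 each).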

How the data were processed

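RNA sequencing counts of 3 IAA and 3 mock root libraries were analysed. Per the labels' protocols, ribosomal RNA was removed and 100-base paired reads were made. Per the submitters' processing notes, STAR 2.5.2b and DESeq2 1.26.0 were used with TAIR10; the counting tool is not given in the sources used here. The authors deposited raw read counts per gene, whole numbers with the 2 runs of a sample already combined. Their deposited comparison gives, per the file headers, a mean normalized signal, a log2 fold change with its standard error, a Wald score, and p-values with Benjamini-Hochberg adjustment; its log2 values run IAA over mock, and a rerun with DESeq2 1.42.0 differed by over 1e-06 in 0 of 24598 genes.

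The whole table was fitted by the robust quasi-likelihood procedure of edgeR 4.0.16 (R 4.3.3), with TMM scaling and filterByExpr, with group as the only term and a threshold of 0.05 on the adjusted p. Standard errors are the absolute log2 change over the square root of F, and intervals use the test's degrees of freedom. CPM use TMM-scaled totals. Exact intervals cover counting error only. Symbols, exons and windows come from RefSeq's TAIR10.1 annotation, matched by locus for all 10 members. The edgeR, DESeq2 and limma-voom tests between groups were checked on simulated counts, which held no deviating library. All members, the called genes of the other lists and each uncalled list's most abundant gene were named. AHK2, AHP6, ARR10, ARR11, IPT3 and the single root markers were named after their values were seen. Members and lists were chosen with earlier results of these data known.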

Additional observations from a re-analysis of the deposited data

How the results depend on the processing

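None of the 8 tested type-A genes changed its call with RLE scaling, scaling to totals, every gene kept, limma-voom, the replicate block, an adjusted p under 0.01 or without organelle genes. With genes kept at 1 CPM in 3 libraries 7 of them were tested, without ARR16, and 0 were called. DESeq2 called 1 higher (ARR7). Leaving out each library gave 0 to 0 called higher and 0 to 2 called lower, the 2 being ARR5 and ARR6 without IAA 1. When each library was left out the log2 change of ARR3 ran from -0.43 to 0.70, that of ARR5 from -0.68 to 0.24 and that of ARR9 from -0.089 to 0.15, with the sign turned for ARR3 without IAA 1, for ARR5 without IAA 2 or IAA 3 and for ARR9 without IAA 1 or mock 3. DESeq2 without IAA 1, chosen after seeing the data, gave -0.43 for ARR3 and -0.017 for ARR9. For the log2 pair ratios, leaving out each library gave differences of -0.61 to 0.16 for ARR3 to ARR4 and -0.66 to 0.56 for ARR16 to ARR17, and the other 3 pairs kept their direction. With coding length in place of exon length 4 of 10 members kept their place in the IAA order. Other signalling genes called higher were 2, with 1 at an adjusted p under 0.01 and 1 to 3 when each library was left out. Called lower was 1, AHK4, with 2 in DESeq2, 0 with the replicate block and 0 at an adjusted p under 0.01. Leaving out each library gave 0 to 1 called lower. The 1, without IAA 1, was ARR11 and not AHK4. Metabolism genes called higher were 6, with 3 under the replicate block, 1 at an adjusted p under 0.01 and 2 to 6 when each library was left out. Over all tested genes 641 were higher and 196 lower, with 1087 and 552 in DESeq2, 272 and 39 at an adjusted p under 0.01, and 260 to 839 and 47 to 433 when each library was left out. Whether the labels' replicate numbers pair the samples is not stated. Deviations from the group means correlated at 0.0915, -0.449 and 0.202 for same-numbered libraries, and from -0.374 to 0.327 for differently numbered ones. With 3 libraries per group these values cannot decide whether the samples were paired. With the replicate block the change of ARR7 was 1.09 (edgeR adjusted p = 0.121), 462 genes were higher and 149 lower. The cause of these changes was not tested.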
